A study of Mus musculus with 4 samples.

Results

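The replication machinery is described here as 40 genes chosen by symbol, among them the subunits of the MCM helicase and of the origin recognition complex, the loading factors, the replicative polymerases, the sliding clamp with its loader, and the proteins that finish Okazaki fragments or coat single-stranded DNA. Of the 40 genes, 37 had a probe on the array and 31 had a probe detected on at least 1 of 4 arrays (detection p below 0.01), out of 8341 genes analysed in all. The rule names genes by symbol and holds no measured value, but it was set with earlier results of these data known. Rfc3, Gins1 and Gins2 are not analysed here because the probe annotation used lists no probe under those symbols. The probes of Orc1, Orc4, Pola1, Prim1, Pole2 and Gmnn were not detected on any array, so no value is given for these 6 genes; a probe at background says nothing about the amount of the transcript itself. Of the 31 genes analysed, 29 were detected on all 4 arrays, and Orc2 and Orc3 on 1 each.

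The cultures were of OG2, a line of embryonic stem (ES) cells from the mouse in which Pou5f1 sequences drive green fluorescent protein. All 4 cultures had first been kept without feeder cells in KSR medium. That medium held PD0325901 at 1 µM, which blocks MEK and so keeps ERK inactive, CHIR99021 at 3 µM, which blocks GSK3, and leukaemia inhibitory factor (LIF) at 1000 U/ml, which signals through JAK kinases to STAT3. For the last 12 h they received FGF2 (10 ng/ml) with JAK inhibitor I (1 µM), PD0325901 with JAK inhibitor I (1 µM), FGF2 (10 ng/ml) with LIF, or PD0325901 with LIF; the labels name no CHIR99021 in these media. FGF2 thus takes the place of the MEK inhibitor, and the JAK inhibitor takes the place of LIF, so adding an agent and removing the other cannot be told apart. Each medium was measured once, on 1 Illumina bead array with 25697 probes, of which 10927, 10626, 10749 and 10677 were detected in the order of the media above. No difference below therefore has a replicate check. The number of arrays limits the precision, and the bead standard errors given cover the beads of an array only. As a check of the labels, the STAT3 target Socs3 was at 55.2 and 45.1 units with the JAK inhibitor, against 1062 and 958 with LIF. The ERK feedback gene Dusp6 was at 2124 and 2070 with FGF2, against 787 and 696 with PD0325901. All 7 ES cell markers listed were detected on all 4 arrays, but not all at like levels. With the JAK inhibitor against LIF their median log2 difference was 0.04 beside PD0325901 and 0.04 beside FGF2. Of the 7, 1 was more than 2-fold lower in both, at -1.18 and -1.21. For FGF2 minus PD0325901 the 7 markers lay between -0.61 and 0.59 beside LIF. In bulk RNA, fewer cells in S phase and less RNA of a gene per cell cannot be told apart.

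In a dividing cell, the origin recognition complex marks origins, and Cdc6 and Cdt1 load onto them the ring of Mcm2 to Mcm7 while geminin (Gmnn) restrains Cdt1. The ring becomes an active helicase once Cdc45 and the GINS complex join it, polymerase alpha with primase starts each strand, and polymerases delta and epsilon extend it on the clamp Pcna, which the Rfc complex loads. Many of these genes are transcribed at the transition from G1 to S phase under E2F transcription factors, and ES cells are known for a short G1 phase with much of their time spent in S phase.

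The promoters show how far the group shares the E2F sequence. RefSeq promoter windows (GRCm38.p6, 250 bases before to 50 after a start) were at hand for 33 of the 40 genes. The letters TTTCCCGC, TTTGGCGC, TTTCGCGC or TTTGCCGC, on either strand, were found in the windows of 15 of the 33 genes (45.5%), against 2.60% of 27025 genes in the same table and 2.26% of 32851 windows. The CCAAT letters were found for 63.6% of the 33 genes and 41.1% of all, the GC box GGGCGG for 75.8% and 38.2%, and TATAAA for 9.09% and 15.7%. A match is a description of letters and not of a bound site. Mcm6 had 3 matches, with first bases at -110, -106 and -47 from the start, the first pair overlapping, and Mcm5 had an overlapping pair at -153 and -149. Shown are the 170 bases before the start for the MCM genes with a match there, for Cdc6, Gins3 and Orc3 with 1 match each, and for Pcna, the gene with the largest single difference below. None of the E2F letters was found in the Pcna window. Capitals mark the E2F letters on either strand.
Mcm6, chr1:128359706-128359875, minus strand: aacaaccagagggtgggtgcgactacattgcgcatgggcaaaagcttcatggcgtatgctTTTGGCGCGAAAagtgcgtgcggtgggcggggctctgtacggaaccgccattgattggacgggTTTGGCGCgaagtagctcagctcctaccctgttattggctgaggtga
Mcm5, chr8:75109339-75109508, plus strand: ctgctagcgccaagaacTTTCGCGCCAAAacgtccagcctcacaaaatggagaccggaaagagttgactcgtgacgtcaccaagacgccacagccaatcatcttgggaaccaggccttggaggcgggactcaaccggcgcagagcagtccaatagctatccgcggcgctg
Mcm7, chr5:138171884-138172053, minus strand: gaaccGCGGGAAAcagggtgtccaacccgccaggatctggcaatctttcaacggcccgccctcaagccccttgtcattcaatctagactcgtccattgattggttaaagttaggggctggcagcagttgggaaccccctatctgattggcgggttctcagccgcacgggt
Cdc6, chr11:98907981-98908150, plus strand: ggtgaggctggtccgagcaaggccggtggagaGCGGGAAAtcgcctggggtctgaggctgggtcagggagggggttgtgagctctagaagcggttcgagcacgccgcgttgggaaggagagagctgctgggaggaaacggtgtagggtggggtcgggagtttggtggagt
Gins3, chr8:95633389-95633558, plus strand: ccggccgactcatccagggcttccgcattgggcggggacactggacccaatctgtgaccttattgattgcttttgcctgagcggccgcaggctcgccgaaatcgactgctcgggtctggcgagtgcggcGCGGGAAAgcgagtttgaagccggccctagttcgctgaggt
Orc3, chr4:34614943-34615112, minus strand: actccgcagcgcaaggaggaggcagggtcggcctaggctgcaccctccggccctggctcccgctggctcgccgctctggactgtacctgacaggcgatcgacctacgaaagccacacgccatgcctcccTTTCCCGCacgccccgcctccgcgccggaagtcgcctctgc
Pcna, chr2:132253181-132253350, minus strand: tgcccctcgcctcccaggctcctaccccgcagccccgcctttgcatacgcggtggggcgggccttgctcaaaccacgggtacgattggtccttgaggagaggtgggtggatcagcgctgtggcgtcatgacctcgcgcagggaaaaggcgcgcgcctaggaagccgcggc

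The replication genes differed little between the 4 media. Over the 31 genes, the median range across the 4 arrays was 0.29 on the log2 scale, against 0.41 over all 8341 genes; among genes detected on all 4 arrays it was 0.28 for the 29 replication genes and 0.37 over the 6772 genes with such a probe. The widest range, 0.61, was that of Pcna and the narrowest 0.13. On the brightest probe of each gene, Pcna differed at least 1.5-fold in 1 comparison, and no other replication gene did so in any. With FGF2 against PD0325901 beside LIF this is 1 of 31, where 9.48% of all genes differed by as much; beside the JAK inhibitor it is 0 of 31, where 4.68% did. With the JAK inhibitor against LIF, 0 of 31 differed at least 1.5-fold beside PD0325901, where 9.42% of all genes did, and 0 of 31 beside FGF2, where 4.68% did. None differed 2-fold, where 1.23% and 0.396% of all genes did for FGF2 (beside LIF and the JAK inhibitor) and 0.827% and 0.54% for the JAK inhibitor (beside PD0325901 and FGF2). Differences beyond 2 bead standard errors were found for FGF2 in 13 of 31 replication genes beside LIF (35.8% of all genes) and 6 of 31 beside the JAK inhibitor (22.9%). For the JAK inhibitor they were found in 14 of 31 beside PD0325901 (32.9%) and 9 of 31 beside FGF2 (25%).

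**Figure D1:**
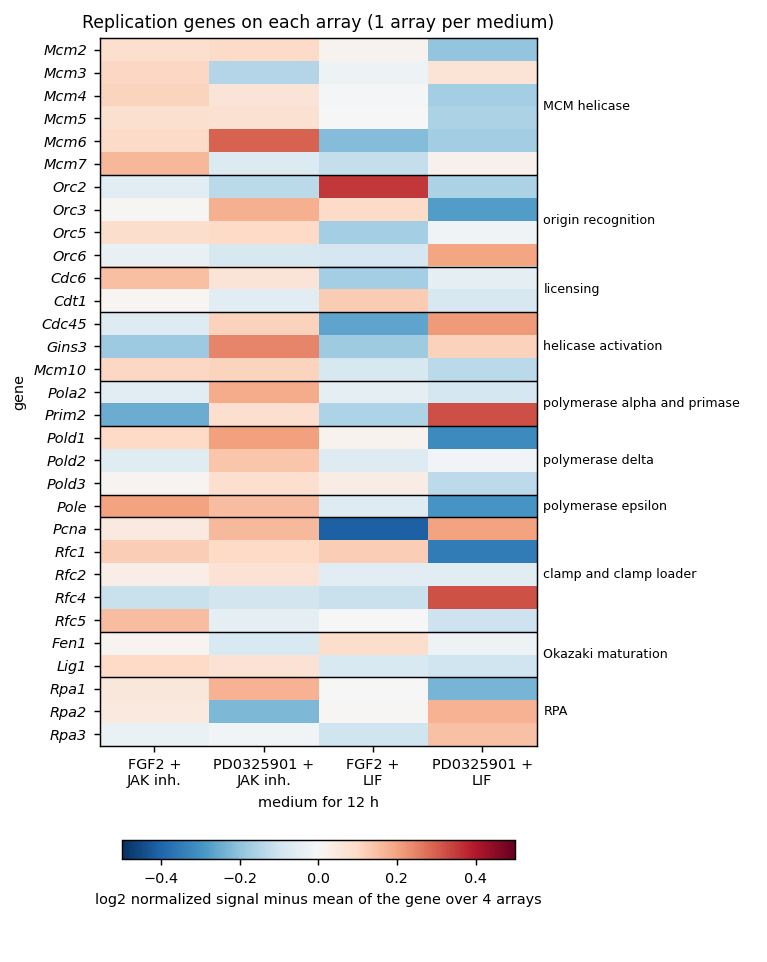
Log2 normalized signal of the 31 replication genes on each of the 4 arrays (columns, 1 array per medium), minus the mean of the gene over the arrays (colour, log2 units), with genes grouped by role. Most cells are pale, the range over arrays having a median of 0.29; Pcna is lowest with FGF2 and LIF, Rfc1, Pole and Pold1 are lowest with PD0325901 and LIF.

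An additive limma fit over all genes, with FGF2 or PD0325901 and JAK inhibitor or LIF as factors, had 1 residual degree of freedom and takes the departure from additivity as its error. It called 0 of 31 replication genes for FGF2 at an adjusted p of 0.05, where 0.24% of all genes were called, and 0 of 31 for the JAK inhibitor, where 0.288% were. At an unadjusted p of 0.05 the limma fit counted 2 of 31 (6.45%) for FGF2, Prim2 and Gins3, against 11.5% of all genes, and 1 of 31 (3.23%) for the JAK inhibitor, Mcm6, against 10.6%. A p above the threshold does not show that a gene was the same in both media. On the probes used, no replication gene departed from additivity by 1.5-fold, where 12.2% of all genes did.

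The comparison of the JAK inhibitor with LIF asked what replication genes do when the LIF signal through JAK is cut. As a group they lay slightly higher with the inhibitor. The median log2 difference was 0.13 beside PD0325901, where the median of all genes was 0.00, and 0.06 beside FGF2, where it was 0.01. Beside PD0325901 21 of 31 genes lay above 0, against 50.2% of all genes, and beside FGF2 22 of 31, against 51.9%. The 2 comparisons use different arrays. In both, 14 of 31 genes (45.2%) were higher, against 30.2% of all genes, and 2 of 31 were lower, against 27.8%; the other 15 had opposite signs. Over the 29 genes detected on all 4 arrays the medians were 0.13 and 0.08, with 19 and 22 of 29 above 0. Without normalization between arrays the median beside PD0325901 was -0.0034 while that of all genes was -0.08, and beside FGF2 the medians were 0.26 and 0.20, so under every scaling tried the replication genes lay above the median of all genes, by 0.08 to 0.13 beside PD0325901 and by 0.05 to 0.08 beside FGF2.

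**Figure D2:**
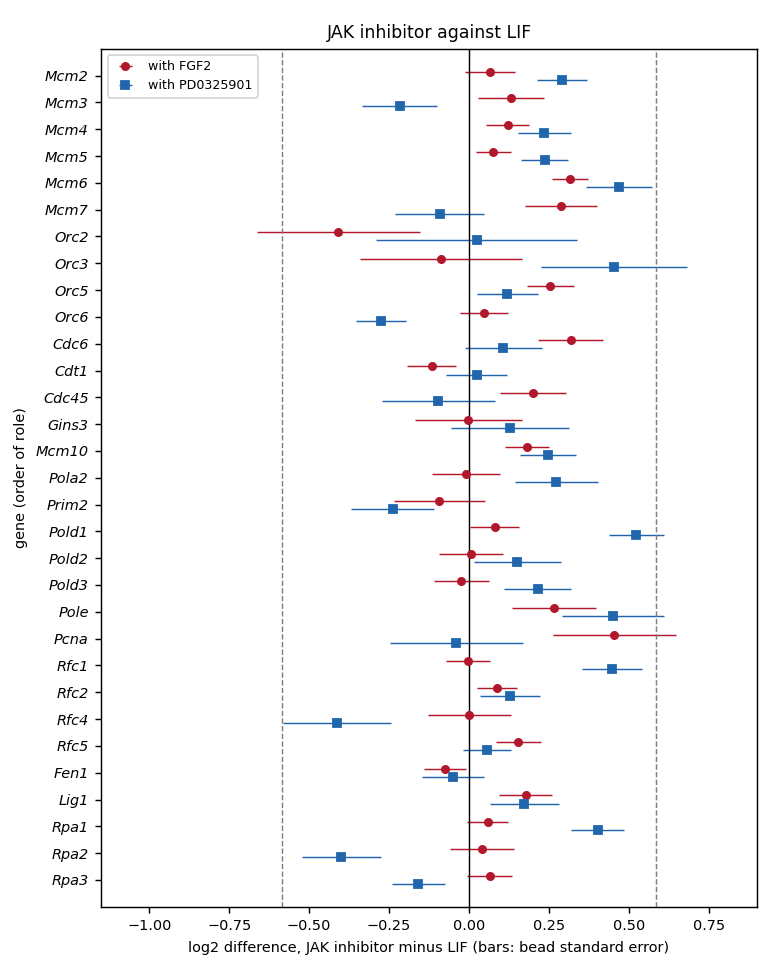
Log2 difference of each replication gene, JAK inhibitor minus LIF, beside FGF2 (circles) and beside PD0325901 (squares), with bead standard errors as bars and dashed lines at 1.5-fold. No point crosses a dashed line, and Mcm6, Pole, Mcm10 and Lig1 lie right of 0 in both.

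Mcm6, a subunit of the helicase ring, had the highest mean difference. Its normalized signal was 2001 with FGF2 and JAK inhibitor and 2296 with PD0325901 and JAK inhibitor, against 1608 with FGF2 and LIF and 1658 with PD0325901 and LIF. Both inhibitor arrays lay above both LIF arrays. The share of all genes that separate in this way was not computed, here or for the genes below, so separation alone marks no response. The log2 differences were 0.47 ± 0.10 (bead standard error) beside PD0325901 and 0.32 ± 0.06 beside FGF2, with a mean of 0.39 ± 0.16 (SE of the limma fit, adjusted p = 0.437). Mcm6 was called in limma with an intensity trend in the variance and without background correction, where 296 and 346 genes in all were called, and under none of the 7 other settings tried. The gene has 3 further probes, all detected on 4 arrays, which gave means of 0.37, 0.29 and 0.16, each above 0 beside both backgrounds. Probes of a gene read the same RNA and are not replicates.

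**Figure D3:**
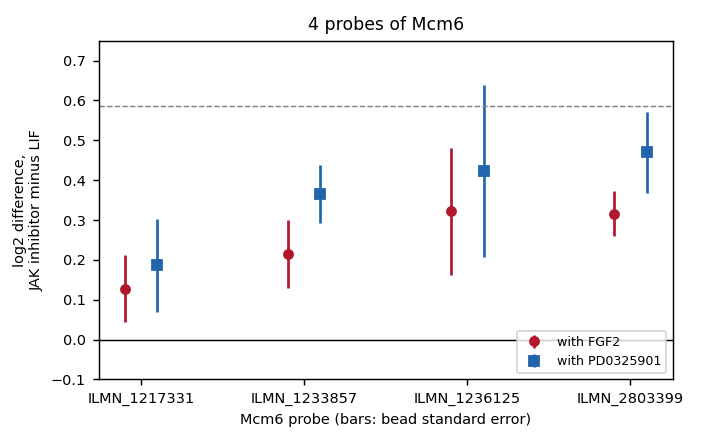
Log2 difference, JAK inhibitor minus LIF, for each of the 4 Mcm6 probes, beside FGF2 (circles) and PD0325901 (squares), with bead standard errors as bars and a dashed line at 1.5-fold. All 8 points lie above 0 and below the dashed line.

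The other MCM subunits split in how they stood on the array of PD0325901 with LIF. Mcm2 was at 1790 and 1804 with the inhibitor (beside FGF2 and PD0325901), against 1711 and 1475 with LIF. Mcm4 was at 3303 and 3200 with the inhibitor, against 3035 and 2719 with LIF. Mcm5 was at 4029 and 4022 with the inhibitor, against 3820 and 3414 with LIF. For these 3 genes PD0325901 with LIF gave the lowest value of the 4 media, and their log2 differences for the inhibitor were 0.24 to 0.29 beside PD0325901 and 0.06 to 0.12 beside FGF2. Mcm3 stood otherwise, at 577 and 485 with the inhibitor, against 526 and 563 with LIF, the inhibitor groups overlapping the LIF groups. Mcm7 was at 463 and 393 with the inhibitor, against 380 and 419 with LIF, and again the groups overlapped. Mean differences were 0.18 for Mcm2 and Mcm4, 0.16 for Mcm5, 0.10 for Mcm7 and -0.04 for Mcm3, each with a limma SE of 0.15 to 0.17. Further detected probes of Mcm4 gave 0.13 and -0.05. All 6 MCM genes were above 0 beside FGF2, with a median of 0.13.

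Among the origin recognition genes, which mark where replication can start, Orc5 was 0.12 higher beside PD0325901 and 0.26 higher beside FGF2, and its other probe gave 0.04 and 0.06. Orc6 was 0.28 lower and 0.05 higher. Orc2 was detected only with FGF2 and LIF, at 33.7 units, and Orc3 only with PD0325901 and JAK inhibitor, at 30.1 units. Each entered through that 1 array, so a higher value there follows in part from the detection filter, and no fold is given. The detection p of Orc3 was 0.01003 with FGF2 and LIF and 0.0138 with FGF2 and JAK inhibitor, close to the threshold. These are signals at the edge of detection, with bead errors of 0.23 to 0.31 on the log2 scale of a difference.

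Of the loading factors, Cdc6, the ATPase that brings MCM rings to origins, was at 296 and 279 with the inhibitor (beside FGF2 and PD0325901), against 237 and 259 with LIF. Both inhibitor arrays lay above both LIF arrays, with log2 differences of 0.32 ± 0.10 beside FGF2 and 0.11 ± 0.12 beside PD0325901 (bead standard errors). Its partner Cdt1 was at 1697 and 1624 with the inhibitor, against 1840 and 1597 with LIF, overlapping groups with a mean of -0.05. Of the helicase activation genes, Mcm10, a factor of origin firing, was 0.25 ± 0.09 higher beside PD0325901 and 0.18 ± 0.07 beside FGF2, while Cdc45 stood at -0.10 and 0.20 and Gins3 at 0.13 and -0.00.

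The polymerase genes held the next highest means. Pole, the catalytic subunit of the leading-strand polymerase epsilon, was at 204 and 197 with the inhibitor (beside FGF2 and PD0325901), against 170 and 145 with LIF. Its inhibitor values lay above its LIF values, with a mean of 0.36 ± 0.16 (SE; limma adjusted p = 0.474). Pold1, the catalytic subunit of polymerase delta, was at 1328 and 1428 with the inhibitor, against 1255 and 993 with LIF. Here the array of PD0325901 with LIF stood low, and the log2 difference was 0.52 ± 0.09 beside PD0325901 but 0.08 ± 0.08 beside FGF2 (bead standard errors). Pold3, Pola2 and Pold2 followed with 0.15 to 0.27 beside PD0325901 and -0.02 to 0.01 beside FGF2. Prim2, the large primase subunit, was at 178 and 224 with the inhibitor, against 190 and 265 with LIF, and was lower in both backgrounds, with log2 differences of -0.09 beside FGF2 and -0.24 beside PD0325901. Fen1, the flap nuclease of Okazaki fragments, was the other gene lower in both, at 1751 and 1643 units with the inhibitor, against 1844 and 1701 with LIF, differences within the bead error or close to it. Lig1, which seals the fragments, gave a mean of 0.18 on the probe used, 0.12 on a second, 0.06 on a probe detected on 1 array, and -0.41 on a further probe detected on all 4 arrays, so its direction depended on the probe.

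The clamp loader and the single-strand binding protein held opposite patterns on the array of PD0325901 with LIF. Rfc1, the large loader subunit, was at 606 and 597 with the inhibitor (beside FGF2 and PD0325901), against 607 and 437 with LIF, so that 3 media were alike and PD0325901 with LIF was low. Rfc4, a small subunit, was at 242 and 245 with the inhibitor, against 242 and 326 with LIF, so that the same array was high. The other Rfc4 probe, not detected with FGF2 and LIF, gave -0.34 beside PD0325901 and 0.30 beside FGF2. Rfc5 was at 890 and 775 with the inhibitor, against 800 and 745 with LIF, and Rfc2 stood at 0.13 and 0.09 on the log2 scale. Rpa1, which binds single-stranded DNA in the RPA trimer, was 0.40 ± 0.08 higher beside PD0325901, whereas Rpa2, in the same trimer, was 0.40 ± 0.12 lower there, at 471 and 389 units with the inhibitor, against 458 and 513 with LIF. Beside FGF2 the 3 RPA genes stood at 0.04 to 0.06. The other Rpa2 probe gave -0.03 beside PD0325901, so that gene's low value there rested on 1 probe.

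That array was also set beside the others over all replication genes and in stromal markers. PD0325901 with LIF gave the lowest value of the 4 media for 16 of 31 replication genes, where 29.7% of all genes were lowest. It gave the highest value for 7 of 31, where 29.7% of all genes were highest. Of 8 fibroblast or stromal markers listed, 5 were analysed, and Col1a2, Col3a1 and Postn were not, having no detected probe. Summed signals of the 5 were 2175 units with FGF2 and JAK inhibitor and 3202 with PD0325901 and JAK inhibitor. With LIF they were 2346 beside FGF2 and 3635 beside PD0325901. The sums were higher on both PD0325901 arrays than on both FGF2 arrays, but a sum weighs the brightest markers most. By marker, the median log2 difference for FGF2 minus PD0325901 was -0.55 beside LIF and -0.05 beside the JAK inhibitor. For the JAK inhibitor minus LIF it was -0.67 beside PD0325901 and -0.13 beside FGF2. The larger difference of each pair is the one that uses the array of PD0325901 with LIF. Beside PD0325901, 4 of the 5 markers were lower with the JAK inhibitor than with LIF and 1 was higher. Dcn was at 466 units with PD0325901 and LIF and at 87.5 to 104 in the other media. Their part in the replication gene values was not tested. The comparison of the JAK inhibitor with LIF beside FGF2 does not use that array, and there the median was 0.06 with 22 of 31 genes above 0.

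The comparison of FGF2 with PD0325901 asked how replication genes stand when ERK signalling is driven by a growth factor rather than held off. Here the group showed no common direction. The median log2 difference was 0.02 beside LIF and -0.01 beside the JAK inhibitor, where the medians of all genes were -0.01 and -0.00. Beside LIF 17 of 31 genes lay above 0, against 49.2% of all genes, and beside the JAK inhibitor 14 of 31, against 49% of all genes. In both backgrounds 9 of 31 were higher (28.9% of all genes) and 9 lower (30.6%), and 13 had opposite signs. The 29 genes detected on all 4 arrays lay between -0.42 and 0.27 beside the JAK inhibitor, and between -0.61 and 0.47 beside LIF. Under median scaling the medians of the replication genes and of all genes were 0.13 and 0.11 beside LIF and 0.33 and 0.29 beside the JAK inhibitor, so that shift was shared with all genes.

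**Figure D4:**
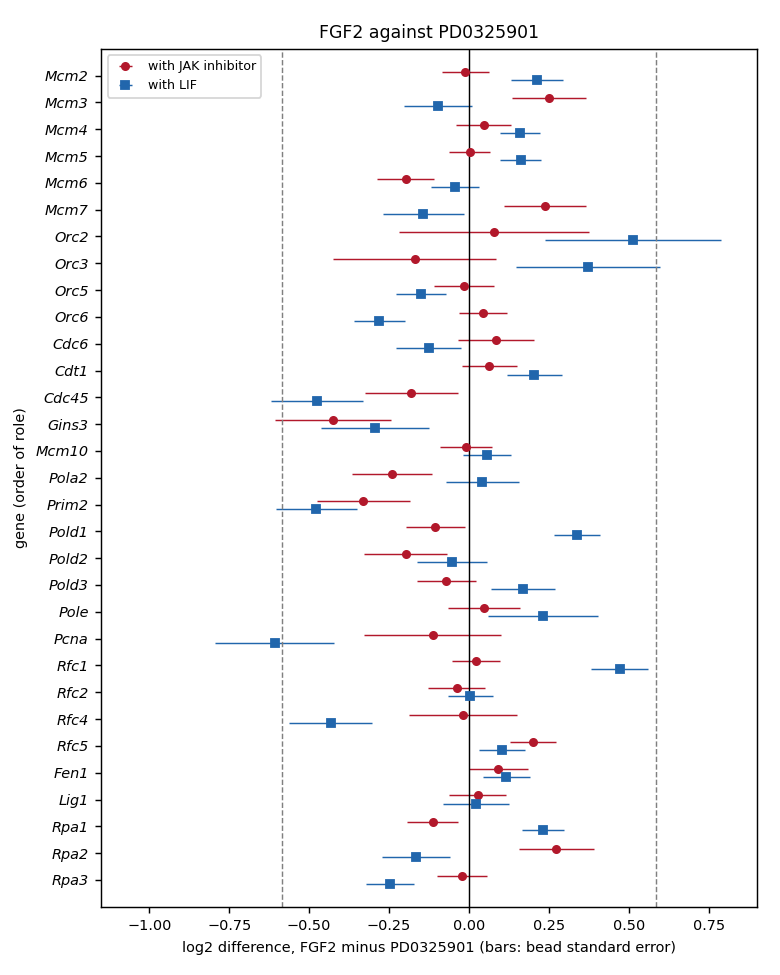
Log2 difference of each replication gene, FGF2 minus PD0325901, beside the JAK inhibitor (circles) and beside LIF (squares), with bead standard errors as bars and dashed lines at 1.5-fold. Pcna beside LIF is the 1 point past a dashed line, and Prim2, Gins3, Cdc45 and Pcna lie left of 0 in both.

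The lowest values belonged to Prim2, Pcna and Gins3. Prim2 was at 178 and 190 units with FGF2 (beside the JAK inhibitor and LIF), against 224 and 265 with PD0325901. Both FGF2 arrays lay below both PD0325901 arrays, with a mean log2 difference of -0.40 ± 0.16 (SE; limma adjusted p = 0.400), while its other probe gave -0.13. Gins3, a subunit of GINS, was at 55.6 and 55.7 with FGF2, against 74.6 and 68.2 with PD0325901, again without overlap, with a mean of -0.36 ± 0.16 (adjusted p = 0.430). Cdc45, which joins GINS on the helicase, was at 242 and 211 with FGF2, against 274 and 293 with PD0325901, a mean of -0.33 ± 0.16 (adjusted p = 0.473) with no overlap. Prim2, Gins3 and Cdc45 did not reach 1.5-fold in either background. The sizes depended on the processing: the Gins3 mean was -0.18 without background correction and -0.51 in the authors' value table. With median scaling, which moved the medians of all genes up by 0.11 and 0.29, the means were -0.17 for Gins3 and -0.15 for Prim2. Without normalization they were -0.08 and -0.07. Over 9 settings the Cdc45 mean ran from -0.36 to 0.0082 and was above 0 in 1, while Gins3 and Prim2 stayed below 0.

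Pcna, the sliding clamp, is represented by 1 probe with a low signal here, and whether that probe reads the main Pcna transcript was not checked, which limits every Pcna value. It was at 51.0 and 37.2 units with FGF2 (beside the JAK inhibitor and LIF), against 55.2 and 56.7 with PD0325901. The array of FGF2 with LIF was low and the other 3 overlapped within bead error. The log2 difference was -0.61 ± 0.19 (bead standard error) beside LIF, 1.52-fold lower, and -0.11 ± 0.21 beside the JAK inhibitor. Beside LIF it was no longer 1.5-fold without background correction, with a larger background offset, with median scaling or without normalization, whereas the authors' value table gave -1 on the log2 scale beside LIF and a mean of -0.58, against a mean of -0.36 here.

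At the upper end, among genes detected on all 4 arrays and higher in both backgrounds, Rfc1 and Rfc5 had the largest means, 0.25 and 0.15 on the log2 scale. Orc2 was detected on 1 array only and is not ranked here. Rfc1 was at 606 and 607 with FGF2 (beside the JAK inhibitor and LIF), against 597 and 437 with PD0325901, which is 0.47 ± 0.09 beside LIF and 0.02 ± 0.08 beside the inhibitor. Rfc5 was at 890 and 800 with FGF2, against 775 and 745 with PD0325901, 0.20 ± 0.07 beside the inhibitor and 0.10 ± 0.07 beside LIF, both FGF2 arrays above both PD0325901 arrays. With median scaling the means of Rfc1 and Rfc5 were 0.52 and 0.40, and without normalization 0.60 and 0.48, in the direction in which those settings moved all genes. On the probes used, the MCM genes kept close to 0, with means from -0.12 for Mcm6 to 0.10 for Mcm2 and Mcm4. Further detected probes gave -0.31, -0.06 and -0.02 for Mcm6, and -0.23 and 0.05 for Mcm4, so this depended on the probe. Cdt1 stood at 0.13 and Cdc6 at -0.02. The polymerase genes other than Prim2 had means from -0.13 (Pold2) to 0.14 (Pole), the RPA genes from -0.13 (Rpa3) to 0.06 (Rpa1), and Fen1 and Lig1 0.10 and 0.02. Further Lig1 probes gave 0.34 and 0.09, and -0.21 on a probe detected on 1 array. Rfc4 was lower beside LIF, at 242 units with FGF2 against 326 with PD0325901, and level beside the JAK inhibitor, at 242 against 245. The other Rfc4 probe gave -0.74 ± 0.32 (bead standard error) beside LIF, past 1.5-fold, and -0.10 beside the JAK inhibitor. That probe was not detected with FGF2 and LIF. Departure from additivity is the log2 difference beside the JAK inhibitor minus that beside LIF. On the probes used, among genes detected on all 4 arrays, the largest departures were those of Pcna (0.49), Rfc1 (-0.45), Pold1 (-0.44), Rpa2 (0.44) and Rfc4 (0.41).

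**Figure D5:**
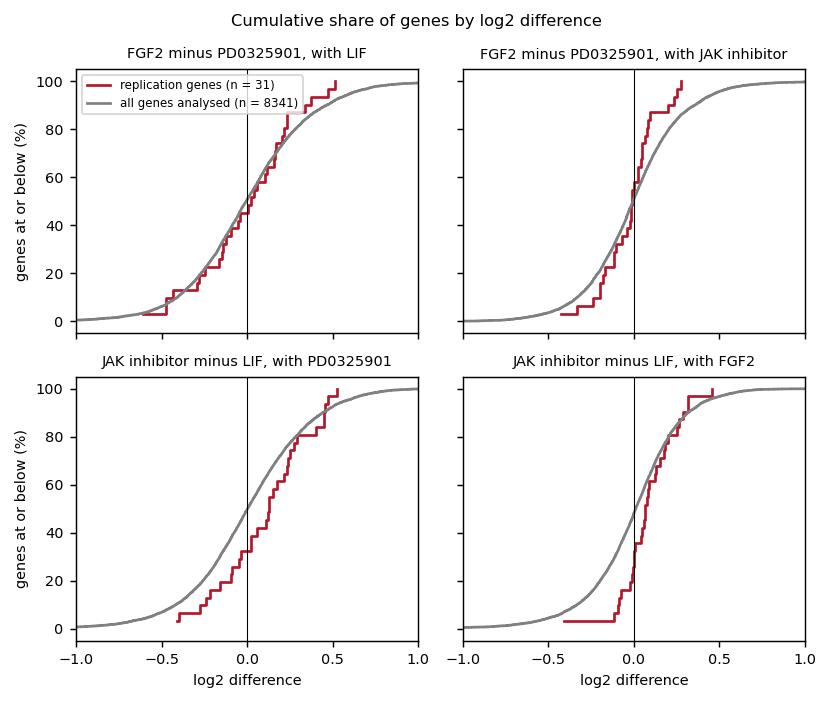
Cumulative share of genes (vertical, percent) by log2 difference (horizontal) for the 31 replication genes and all 8341 genes, in the 4 comparisons. For FGF2 minus PD0325901 the curves cross close to 0, and for JAK inhibitor minus LIF the curve of the replication genes lies right of that of all genes near 0, by medians of 0.13 and 0.06 against 0.00 and 0.01.

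Split by the promoter letters, the 11 analysed genes with an E2F match had a median of 0.17 for the JAK inhibitor beside PD0325901 and 0.08 beside FGF2, and the 16 without had 0.04 and 0.05. Beside PD0325901, 9 of 11 genes with a match and 9 of 16 without lay above 0. Beside FGF2 it was 7 of 11 and 12 of 16, and in both backgrounds 5 of 11 and 6 of 16. The other 4 (Mcm4, Prim2, Pole and Rfc2) have no promoter in the table, and their medians were 0.18 and 0.10, as high as those of the genes with a match. The 11 hold Mcm6 and Pold1 at 0.39 and 0.30 in the mean, but also Mcm3 and Cdt1 at -0.04 and -0.05. For FGF2 the medians were 0.02 and 0.00 with a match and -0.01 and -0.01 without, beside LIF and the JAK inhibitor. These medians are descriptions with no test.

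Of 95 further genes of replication and the cell cycle, 68 were analysed, and limma called 0 for either factor at an adjusted p of 0.05, with 6 of 68 for FGF2 and 4 of 68 for the JAK inhibitor at an unadjusted p of 0.05, where 11.5% and 10.6% of all genes were counted. For the JAK inhibitor beside PD0325901 and beside FGF2, the medians were 0.14 and 0.00 for 18 of 25 firing and fork factors, 0.23 and 0.01 for 6 of 11 genes of replication-coupled chromatin assembly, 0.11 and -0.02 for 12 of 15 E2F and RB regulators, -0.02 and 0.02 for 18 of 20 genes of nucleotide supply, and -0.02 and 0.04 for 14 of 24 genes of G2 and mitosis. For FGF2, 2 of 68 were higher by 1.5-fold beside LIF (5.61% of all genes) and 1 lower (3.87%), and 1 was higher (2.46%) and 1 lower (2.22%) beside the JAK inhibitor. For the JAK inhibitor, 3 of 68 were higher by 1.5-fold beside PD0325901 (4.88%) and 1 lower (4.54%), and 0 were higher (1.83%) or lower (2.84%) beside FGF2. In 0 of 68 did a difference of that size recur in the other background with the same sign, where for FGF2 0.755% of all genes were higher in both and 0.516% lower, and for the JAK inhibitor 0.252% and 0.827%. Named after their values were seen, E2f2, a transcription factor of the family above, was 1.27 higher on the log2 scale with FGF2 beside LIF, at 116 units against 48.2 with PD0325901, and 0.40 higher beside the JAK inhibitor. Ccne1, the cyclin that drives entry into S phase, was 0.96 higher with FGF2 beside the JAK inhibitor, at 602 units against 310 with PD0325901, and 0.33 higher beside LIF.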

How the data were processed

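Per the labels' protocols, RNA from 4 cultures (400 ng each) was amplified, labelled with Cy-3 and hybridised, 1 array per medium; BeadStudio is the tool in the submitters' processing notes, with settings not given in the sources used here. Columns, per the file headers, show that the deposited tables held a signal intensity and bead standard error per probe and a detection p-value. The deposited value table of the authors held whole-number intensities with equal medians, normalized in an unstated way. Signals were background-corrected with nec (limma 3.58.1, R 4.3.3; offset 16), log2-transformed, and brought to equal quantiles on the 4 arrays; signal units in the text are these values on the linear scale. A probe was kept where any array detected it (p below 0.01), and the brightest probe stood for its gene (annotation of the series, symbols updated by RefSeq). Bead errors were divided by the corrected signal to reach the log2 scale. Genes were counted at 1.5-fold. The additive limma fit used Benjamini-Hochberg adjustment over 8341 genes. It was run on simulated data with additive effects only and noise drawn from its own variance estimate. That run cannot show whether the p-values hold where effects are not additive. The p-values of the fit rest on the departure from additivity, moderated by a variance pooled over all genes, and not on replicate arrays. Alternatives were another background offset, no background correction, median or no scaling, the authors' table, other detection filters, the mean of probes, a variance trend and 2-fold. Members and lists were chosen with earlier results of these data known. Named members were those at 1.5-fold, the 3 highest and 3 lowest means per factor of 1 sign, the 5 largest departures, and Mcm2 to Mcm7, Pcna, Cdc6, Cdt1, Gmnn and Orc1; other genes given with values were picked after these were seen.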

Additional observations from a re-analysis of the deposited data

How the results depend on the processing

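The counts and medians of the 31 genes were recomputed under 10 alternatives. The 1 gene at 1.5-fold for FGF2 beside LIF, Pcna, became 0 without background correction, with an offset of 50 and at 2-fold; under median scaling and without normalization the 1 gene was Rfc1 instead. For FGF2 beside the JAK inhibitor the count was 3 with median scaling (Mcm3, Mcm7, Rpa2; 12.1% of all genes) and 4 without normalization (24.9%), and for the JAK inhibitor beside FGF2 it was 1 without normalization (8.04%) and 1 with the authors' value table (6.69%), both Pcna. In the additive limma fit for the JAK inhibitor, 1 member, Mcm6, was called with an intensity trend and 1 without background correction. With median scaling the member medians were 0.13 and 0.33 for FGF2 (beside LIF and the JAK inhibitor) and 0.023 and 0.18 for the JAK inhibitor (beside PD0325901 and FGF2); without normalization they were 0.16, 0.47, -0.0034 and 0.26, in the same order. The medians of all genes shifted alike, to 0.11, 0.29, -0.06 and 0.12 with median scaling. The mean difference for the JAK inhibitor kept its sign under all settings for 28 of 31 genes (20 above 0, 8 below), and for FGF2 for 19 of 31 (16 above, 3 below). For FGF2, median scaling and no normalization moved the medians of all genes up by 0.11 to 0.42, so that count does not gauge the stability of these genes. Every setting reprocesses the same 4 arrays, and those that change only the detection filter use the same normalized values. The count for the JAK inhibitor therefore does not measure repeatability either, and its share over all genes was not computed. No paired analysis was possible because each group holds 1 array, which leaves no replicate numbers to pair; the additive fit compares arrays within each background. Leaving out an array would remove a group. Signals near background limit Orc2, Orc3, Pcna and Gins3.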
